A study of Mus musculus with 17 samples.

Results

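Areg (amphiregulin), Hbegf (heparin-binding EGF-like growth factor), Ereg (epiregulin) and Tgfa (transforming growth factor alpha) encode ligands of the epidermal growth factor (EGF) family. They were taken as a given list of 4 genes among the 54446 gene IDs of the bulk count tables, and all 4 were also listed in each of the 3 single-cell tables. Ligands of this family are made as membrane-anchored precursors and are cut free at the cell surface by proteases, chiefly ADAM17. They act through EGFR and its relatives ERBB2, ERBB3 and ERBB4, which signal through RAS and MAP kinases. These signals in turn induce inhibitors such as the Sprouty proteins and ERRFI1. In skin they act on keratinocytes and on cells of the hair follicle, and amphiregulin is a known product of the innate lymphoid cells called ILC2s.

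Innate lymphoid cells (ILCs) are tissue lymphocytes without rearranged antigen receptors. RNA of such cells from the skin of C57BL/6 mice was sequenced in bulk (14 libraries) and by single cell (3 libraries). The sort kept live CD90-positive skin cells that lacked lineage markers and the γδ T cell receptor. A genetic fate-map (fm) reporter, whose mark persists in a cell and its progeny, was carried by the mice behind 10 of the bulk libraries. Reporter-positive (fm_pos, n = 2) and reporter-negative cells (fm_neg, n = 2) came from mice with intact Gata3. The same sort from mice labelled Gata3flox, which the protocols describe as lacking Gata3, gave fm_pos_Gata3flox (n = 3) and fm_neg_Gata3flox (n = 3). The remaining 4 bulk libraries were WT_tamoxifen (n = 2, wild type) and Gata3KO_tamoxifen (n = 2, Gata3fl/fl CreERT2). All of those mice received 3 intraperitoneal injections of 5 mg tamoxifen. The single-cell libraries held skin ILCs and dorsal skin ILCs at day 0 and at day 10 of the depilation time course, 1 library each. The Cre that removes Gata3 in the fate-map mice and the ages of the animals are not given in the sources used here. Whether replicates were separate animals is not in the labels. The p-values therefore cover the spread between these libraries, which may be technical.

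Bulk totals ran from 14450612 to 44098274 counts. Gata3, the gene targeted in the floxed and knockout groups, was detected in all 14 libraries. By the quasi-likelihood test of edgeR with Benjamini-Hochberg adjusted p-values, it was called in none of the 6 comparisons (adjusted p from 0.230 to 1), so those groups are named here as their labels name them. Markers of other skin cells were uneven. The summed level of 10 keratinocyte markers was 2572 to 4728 CPM (counts scaled to a common library total) in fm_neg and 359 to 733 in every other library. The summed level of 7 fibroblast markers was 5461 to 7844 CPM in fm_neg, 856 to 3870 in the tamoxifen libraries, and 29.0 to 872 in the other fate-map libraries. Summed ILC2 markers lay between 2412 and 10240 CPM, and summed B cell markers between 0 and 12. Summed T cell markers lay between 1148 and 2201 CPM, γδ T cell markers between 502 and 1052, and ILC1 and natural killer cell markers between 95.7 and 1098. Summed ILC3 and type 17 cytokine markers were 1246 to 1909 CPM in fm_pos and 524 to 663 in fm_neg. They were 1444 to 2112 in fm_pos_Gata3flox and 387 to 558 in fm_neg_Gata3flox. In the single-cell data, 4103, 553 and 443 cells were kept from the skin, day 0 and day 10 libraries, with medians of 2358, 1984 and 1811 unique molecular identifiers (UMIs) per cell. The skin and day 0 libraries shared 4 cell barcodes. Replicate libraries of 1 group differed by far more than counting noise, and none was a copy of another.

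Areg and Ereg are neighbours. On mm10, Areg (ENSMUSG00000029378) lies on chromosome 5 from 91139599 to 91148432, plus strand, and Ereg from 91074622 to 91093646, plus strand, 45952 bp away. Tgfa lies on chromosome 6 from 86195223 to 86275719, plus strand. In GENCODE vM21, an opposite-strand gene model shared 141 exon bases with Ereg and another shared 118 with Tgfa. Strand use in the authors' counting is not given in the sources used here, so low counts of those genes may include antisense reads. RefSeq promoters of GRCm38.p6, 250 bases before to 50 after the start, matched for 2 of the 4 members, Areg and Tgfa. Both are shown, since they are the members whose promoter could be matched. Capitals mark the motifs found, and both promoters are read 5′ to 3′ on the plus strand, Areg at chr5:91139349-91139648 and Tgfa at chr6:86194972-86195271.
Areg: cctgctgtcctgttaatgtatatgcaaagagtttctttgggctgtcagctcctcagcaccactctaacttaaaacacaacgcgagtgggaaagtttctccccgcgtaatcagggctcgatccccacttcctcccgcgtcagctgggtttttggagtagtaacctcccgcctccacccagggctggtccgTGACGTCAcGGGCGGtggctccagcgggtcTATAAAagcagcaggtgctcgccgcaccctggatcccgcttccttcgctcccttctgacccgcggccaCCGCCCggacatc
Tgfa: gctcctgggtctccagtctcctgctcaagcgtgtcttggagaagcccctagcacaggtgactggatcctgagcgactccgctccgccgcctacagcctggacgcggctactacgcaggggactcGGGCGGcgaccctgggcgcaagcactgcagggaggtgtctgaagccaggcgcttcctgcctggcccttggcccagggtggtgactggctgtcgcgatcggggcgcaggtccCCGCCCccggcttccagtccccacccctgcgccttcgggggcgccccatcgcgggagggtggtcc
The Areg promoter held TGACGTCA, the palindrome bound by CREB-family factors, 61 bp before the start. This motif was found in 1.79% of 32851 mouse promoters of that length. It also held a TATA box (TATAAA, on the plus strand, 31 bp before the start, in 13.6% of promoters on either strand) and the GC box GGGCGG on both strands (in 35.7%). The Tgfa promoter held the GC box on both strands and none of the other motifs searched. Neither window held the AP-1 site TGANTCA (7.81% of promoters), the GATA site AGATAA (11.2%) or the CCAAT box (37.4%), searched on both strands. The TGACGTCA and GC box matches lie 1 base apart and do not overlap. These matches describe letters in the window and nothing more.

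Areg was by far the most abundant EGF-family transcript. On a scale that divides by transcript length, TPM (length-scaled counts as a part of the library), Areg averaged 838 over the 14 libraries, Hbegf 28, Tgfa 0.586 and Ereg 0.326. In fm_neg, where its mean was 1283 TPM, only 0.191% of all genes had a higher mean level per length. In Gata3KO_tamoxifen, where its mean was 386 TPM, the share was 0.720%. Areg made up 89.5% to 98.6% of the summed TPM of the 11 EGF-family ligands listed. The lowest share, 89.5%, belonged to fm_neg replicate 2, in which Hbegf made up 10.1%. Of the other listed ligands, only Epgn (epigen) exceeded a mean of 1 TPM, at 6.84 TPM, and Egf, Btc, Nrg1, Nrg2, Nrg3 and Nrg4 averaged between 0.00125 and 0.365 TPM.

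**Figure D1:**
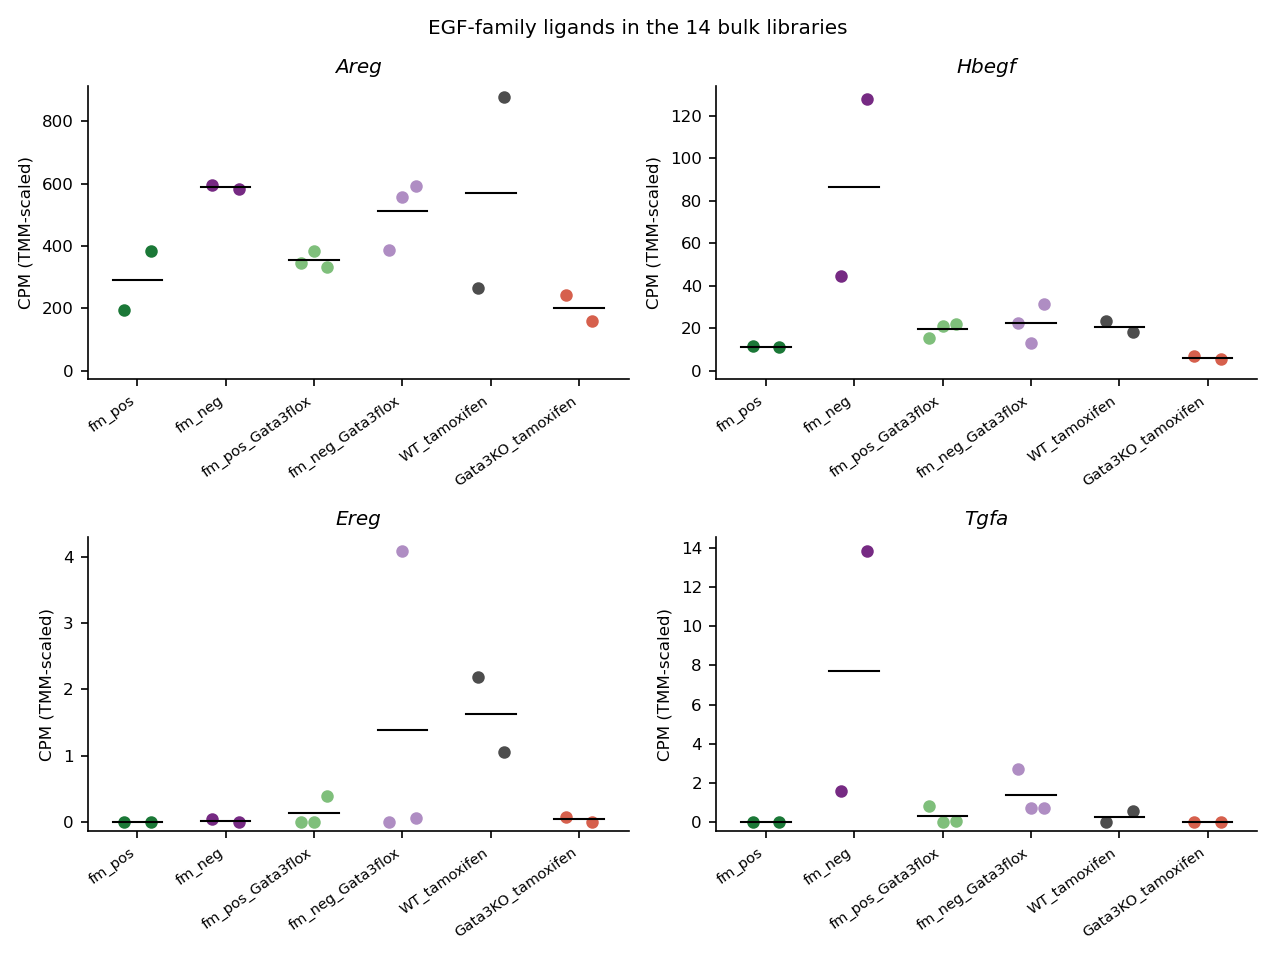
Levels in CPM (TMM-scaled, linear axes with their own range in each panel) of the 4 EGF-family ligands in the 14 bulk libraries. Points are libraries and bars are group means. Areg is between 160 and 878 CPM everywhere, Hbegf stands highest in both fm_neg libraries, and Ereg and Tgfa are at or near 0 in most libraries.

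Areg varied among groups, and the groups' ranges mostly overlapped. In CPM scaled with edgeR's TMM factors, Areg was at 194 and 385 in fm_pos and at 595 and 583 in fm_neg. It was at 345, 385 and 333 in fm_pos_Gata3flox and at 388, 556 and 592 in fm_neg_Gata3flox. WT_tamoxifen had 264 and 878 CPM, and Gata3KO_tamoxifen had 244 and 160. Both reporter-positive groups lay below their reporter-negative counterparts with no overlap, and both Gata3KO_tamoxifen libraries lay below both WT_tamoxifen libraries. Mean levels ran from fm_neg (589 ± 8.20 CPM, SD, n = 2) through WT_tamoxifen, fm_neg_Gata3flox, fm_pos_Gata3flox and fm_pos to Gata3KO_tamoxifen (202 ± 59.2, n = 2). Between neighbours in that order, only the ranges of fm_neg_Gata3flox and fm_pos_Gata3flox did not overlap. The widest spread was in WT_tamoxifen (571 ± 434 CPM, n = 2), whose replicates differed more than any pair of fate-map group means. How many of all genes separated between groups without overlap was not counted, here or in the comparisons below.

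Hbegf (ENSMUSG00000024486, mm10 chromosome 18 from 36504929 to 36515805, minus strand) stood apart in reporter-negative cells of intact mice. The fm_pos libraries had 11.5 and 11.1 CPM and the fm_neg libraries 44.6 and 128. Hbegf was at 15.5, 20.9 and 21.9 CPM in fm_pos_Gata3flox and at 22.5, 13.2 and 31.4 CPM in fm_neg_Gata3flox. The tamoxifen libraries had 23.2 and 18 CPM in WT_tamoxifen and 6.72 and 5.29 in Gata3KO_tamoxifen. Both fm_neg libraries exceeded all 12 others, and both Gata3KO_tamoxifen libraries were below all others. The order of means was fm_neg (86.2 ± 58.8 CPM, SD, n = 2), fm_neg_Gata3flox, WT_tamoxifen, fm_pos_Gata3flox, fm_pos and Gata3KO_tamoxifen (6.01 ± 1.01, n = 2). Ranges of the groups in the middle, fm_neg_Gata3flox, WT_tamoxifen and fm_pos_Gata3flox, overlapped one another. As for Areg, ranks across the fate-map and tamoxifen libraries compare levels that were scaled separately.

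Ereg was detected in few libraries and mostly in 1 library of a group. It had 0 counts in both fm_pos libraries, and 1 and 0 in fm_neg. The fm_pos_Gata3flox libraries had 0, 0 and 17 counts and the fm_neg_Gata3flox libraries 0, 89 and 1. WT_tamoxifen had 34 and 17 counts and Gata3KO_tamoxifen 2 and 0. Only 4 of the 14 libraries had more than 3 counts, and only WT_tamoxifen had them in every replicate. The highest level was 4.09 CPM, in fm_neg_Gata3flox replicate 2. Ereg did not pass the filter on low counts in the fate-map libraries and was tested in the tamoxifen libraries alone.

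Tgfa was also sparse, and its counts lay mainly with reporter-negative cells. It had 0 counts in both fm_pos libraries and 35 and 199 in fm_neg (1.58 and 13.8 CPM). It had 20, 0 and 2 counts in fm_pos_Gata3flox and 54, 16 and 12 in fm_neg_Gata3flox, where the levels were 2.73, 0.735 and 0.720 CPM. WT_tamoxifen had 0 and 9 counts and Gata3KO_tamoxifen had 0 in both. The highest value, in fm_neg replicate 2, came from the same library as the highest Hbegf. Tgfa passed the filter in the fate-map libraries and not in the tamoxifen libraries.

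The reporter comparison in intact mice asked how marked and unmarked ILCs differ. Of the 3 members tested there, Hbegf was lower in fm_pos and passed the test, while Areg and Tgfa did not pass. A gene was called where its adjusted p was under 0.05, which held for 2.74% of the 17456 genes tested, 109 higher and 369 lower in fm_pos. Hbegf fell by 2.93 ± 0.56 (SE) on the log2 scale, a 7.63-fold difference, with an adjusted p of 0.0285 (quasi-likelihood test of edgeR, n = 2 and 2). In bulk libraries, fewer cells of a type and less RNA per cell cannot be told apart. The call was lost without fm_pos replicate 1 (log2 fold change −2.95, adjusted p 0.0706 by edgeR), without fm_pos replicate 2 (−2.90, 0.0625) and without fm_neg replicate 2 (−1.98, 0.0889). Over 11 alternatives the adjusted p lay between 4.34e-06 and 0.269 and the log2 fold change between −3.50 and −0.99.

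Areg had a log2 fold change of −1.02 ± 0.30 (SE) in fm_pos against fm_neg, with an adjusted p of 0.112 by edgeR's quasi-likelihood test. It was called in 3 of 11 alternatives, whose adjusted p ran from 0.00428 to 0.347. Tgfa, with 0 counts in fm_pos and 234 in fm_neg, was at least 151-fold lower in fm_pos against a floor of 3 counts over the group. Its adjusted p was 0.117 by edgeR, and 199 of the 234 counts came from 1 library. Bounds and intervals of this kind cover counting error only.

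The fm_neg libraries that set these values also held the most keratinocyte and fibroblast transcripts. Their summed keratinocyte markers were 4728 CPM in replicate 1 and 2572 in replicate 2, against 385 and 439 in fm_pos. Their summed fibroblast markers were 7844 and 5461 CPM, against 29.0 and 168 in fm_pos, where 2 to 4 of the 7 markers were at 0 counts, as were 1 to 3 of the 10 keratinocyte markers. The summed immediate early genes were 30950 and 25310 CPM against 17490 and 21240. Hbegf and Tgfa were higher in fm_neg replicate 2, while all 3 of these sums were higher in replicate 1. The part of these transcripts in the result was not tested. With fm_neg_Gata3flox as the reporter-negative side, a choice made after the data were seen, Hbegf had a log2 fold change of −0.99 ± 0.49 in fm_pos and an adjusted p of 0.269 by edgeR.

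**Figure D2:**
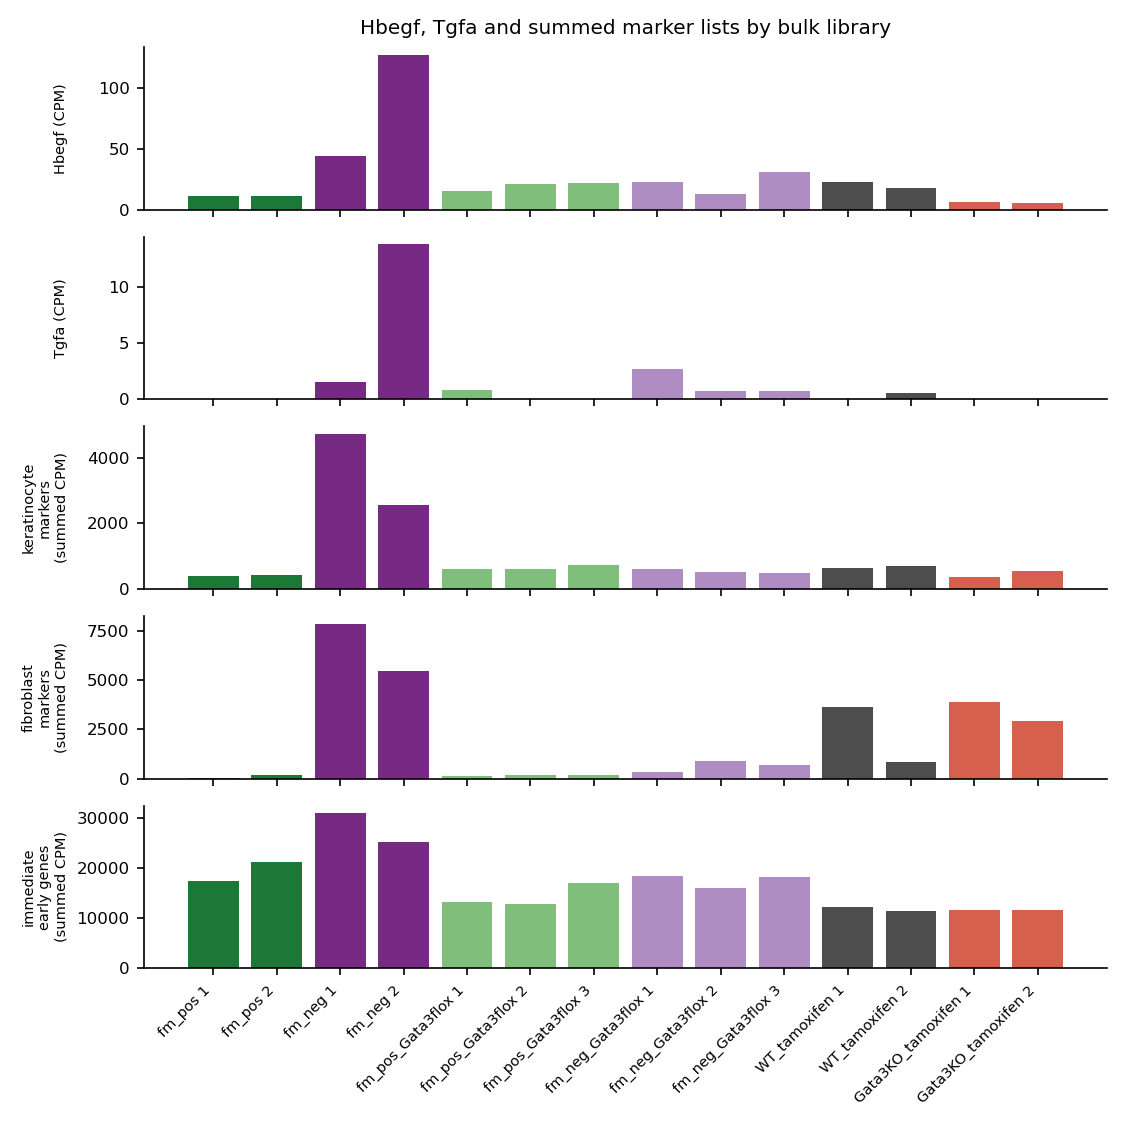
CPM of Hbegf and Tgfa (top 2 panels) and summed CPM of 10 keratinocyte markers, 7 fibroblast markers and 18 immediate early genes (lower 3 panels) in each of the 14 bulk libraries, 1 bar per library and all axes from 0. Both fm_neg libraries are the highest in Hbegf and in each summed list, with replicate 2 ahead for Hbegf and Tgfa and replicate 1 ahead for the lists.

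In Gata3flox mice the same reporter comparison called 0.361% of the 17456 genes and none of the 3 tested members. Areg had a log2 fold change of −0.53 ± 0.24 (SE) in fm_pos_Gata3flox against fm_neg_Gata3flox, with an adjusted p of 0.656 by edgeR. Its 3 reporter-positive libraries lay below the 3 reporter-negative ones. Hbegf was near 0 at −0.20 ± 0.43 (adjusted p 1), with overlapping ranges, and its sign turned with the choice of libraries. With the L tag carried in the file names as a covariate the log2 fold change was 0.69, and without fm_neg_Gata3flox replicate 3 it was 0.12. That tag partly coincides with the reporter. Every reporter-positive library carries L2, while L1 is carried by fm_neg_Gata3flox replicates 1 and 3 and by fm_neg replicate 2. The last of these had the highest Hbegf and Tgfa. Tgfa had 22 counts against 82, a 6.05-fold lower level by counts (95% counting interval 3.74 to 10.2), with an adjusted p of 0.974 by edgeR and overlapping ranges. Its fitted log2 fold change was −2.23, and it ran from −5.56 without fm_pos_Gata3flox replicate 1 to −1.29 without fm_neg_Gata3flox replicate 1. Ereg had 17 counts against 90, of which 89 came from 1 library.

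Within reporter-positive cells, the Gata3flox label came with calls for 1.52% of the genes tested and for no member. Hbegf was higher in all 3 fm_pos_Gata3flox libraries than in both fm_pos libraries (log2 fold change 0.78 ± 0.49, SE, adjusted p 0.392 by edgeR). Areg overlapped between those groups (0.29 ± 0.27, adjusted p 0.601), and without fm_pos replicate 1 its log2 fold change was −0.12. Ereg, with 17 counts against 0, was at least 4.24-fold higher, and Tgfa, with 22 against 0, at least 5.48-fold higher, both against a floor of 3 counts over the group. All 17 Ereg counts and 20 of the 22 Tgfa counts came from 1 library each.

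Within reporter-negative cells, the Gata3flox label came with calls for 1.33% of the genes tested and again for no member. Hbegf was lower in all 3 fm_neg_Gata3flox libraries than in both fm_neg libraries, at −1.95 ± 0.47 (SE) on the log2 scale, and its adjusted p was 0.0794 by edgeR. It was called in 4 of 11 alternatives (adjusted p from 0.00249 to 0.372), and its log2 fold change was −0.99 without fm_neg replicate 2. Areg overlapped between the groups (−0.20 ± 0.27, adjusted p 0.738). Tgfa had 82 counts against 234, a 4.54-fold lower level (95% counting interval 3.52 to 5.91), with an adjusted p of 0.498 by edgeR and overlapping ranges. That fold rested on fm_neg replicate 2, with 199 of the 234 counts, since the fitted log2 fold change was −2.46 with it and −0.17 without it. Ereg had 90 counts against 1, a ratio of 56.6 by counts (9.90 to 2260), and 89 of the 90 came from replicate 2. The other fm_neg_Gata3flox libraries had 0 and 1 counts, the same values as the fm_neg libraries. As above, the fm_neg libraries held more keratinocyte and fibroblast transcripts than fm_neg_Gata3flox, whose sums were 492 to 625 and 344 to 872 CPM.

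The interaction term asked whether the reporter difference itself changed with the Gata3flox label, and 1.01% of genes were called. No member was. Hbegf had an interaction of 2.73 ± 0.69 (SE) on the log2 scale, the reporter difference being 2.93 lower in intact mice and 0.20 lower in Gata3flox mice, with an adjusted p of 0.111 by edgeR. It was called in 4 of 15 alternatives (adjusted p from 0.00402 to 0.267), among them the fit with the L tag (2.82, adjusted p 0.0418). Areg had 0.49 ± 0.38 (adjusted p 0.635). Intact and Gata3flox fate-map libraries also carry different run tags in their file names, so the run and the Gata3 label cannot be told apart.

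In the tamoxifen libraries no gene was called, 0% of the 13272 tested by edgeR's quasi-likelihood test, although 915 had an unadjusted p under 0.05 and DESeq2 called 200. Each member that could be tested was lower in both Gata3KO_tamoxifen libraries than in both WT_tamoxifen libraries, with none called. The share of all genes tested that separated in this way was not counted. The separation is thus not shown to be particular to these members. Areg had a log2 fold change of −1.50 ± 0.60 (SE) and an adjusted p of 0.740 by edgeR, and without WT_tamoxifen replicate 2 its value was −0.38. Hbegf had −1.78 ± 0.58 (adjusted p 0.591) and kept its direction in all 8 alternatives, between −1.95 and −1.58. Ereg had 2 counts against 51, and the WT_tamoxifen level was 31.3 times as high by counts (95% counting interval 8.23 to 265), with an adjusted p of 0.743 by edgeR. Tgfa had 0 counts against 9, all 9 from WT_tamoxifen replicate 2, and was at least 3.68-fold lower. Summed myeloid markers also differed, at 863 and 971 CPM in WT_tamoxifen and 303 and 362 in Gata3KO_tamoxifen. Summed markers of mast cells and basophils, keratinocytes and ILC3s were likewise lower in both Gata3KO_tamoxifen libraries. Sums of γδ T cell markers went the other way, at 677 and 709 CPM in WT_tamoxifen and 1052 and 1008 in Gata3KO_tamoxifen. So did T cell sums and those of ILC1 and natural killer cells. The ILC2 sum was 10240 CPM in WT_tamoxifen replicate 2, 5657 in the other WT_tamoxifen library, and 6461 and 5900 in Gata3KO_tamoxifen. The part of these cells in the member values was not tested.

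**Figure D3:**
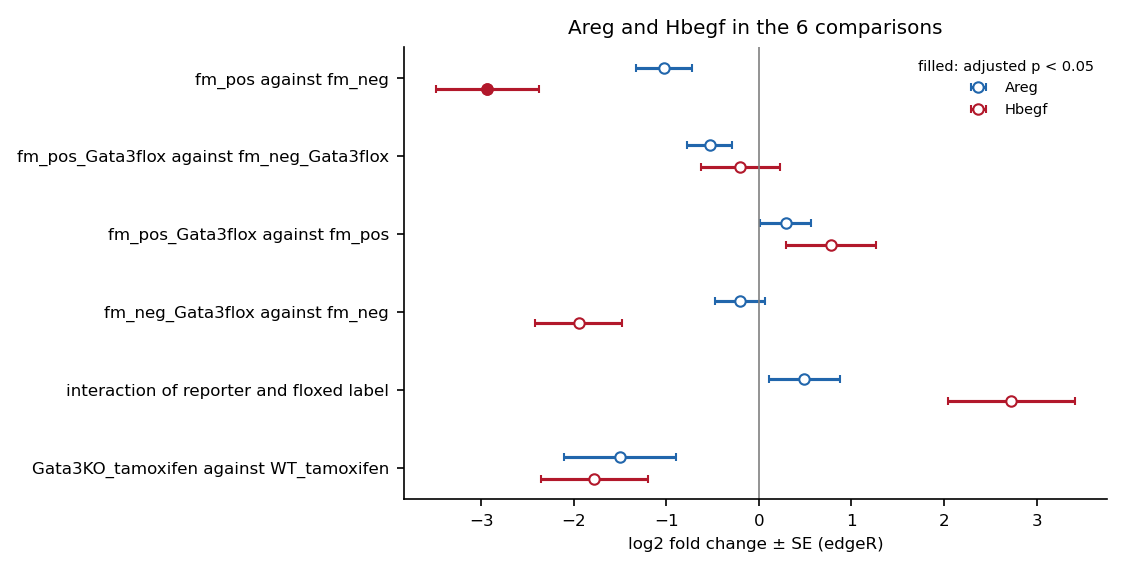
Log2 fold changes (x axis) of Areg and Hbegf in each of the 6 bulk comparisons (y axis) with the SE of the edgeR fit as bars, and a filled point where the adjusted p is under 0.05. The filled point is Hbegf in fm_pos against fm_neg at −2.93, and Hbegf lies at 0.78 and −1.95 in the Gata3flox comparisons of reporter-positive and reporter-negative cells.

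Receptors of the family were scarce in these ILC libraries, while most shedding and feedback genes were detected throughout. Above the floor of 3 counts in every library were 12 of 14 shedding genes and 13 of 17 feedback genes, but none of the 4 receptors. Egfr averaged 0.933 TPM over the 14 libraries, Erbb3 0.543 and Erbb2 0.311, and Erbb4 had no library above 3 counts. Among genes that release or carry ligand precursors, Cd9, a tetraspanin that associates with the HB-EGF precursor, had the highest level per length (607 TPM). The cargo receptors Tmed10 (160 TPM) and Cnih1 (117 TPM) followed. The sheddases Adam17 and Adam10 averaged 23.8 and 14 TPM and were above 3 counts in every library. The most abundant feedback genes were Dusp5, a phosphatase that inactivates ERK (429 TPM), Errfi1, an inhibitor of EGFR kinase activity (263 TPM), and Spry2, a Sprouty inhibitor of RAS signalling (97.2 TPM).

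**Figure D4:**
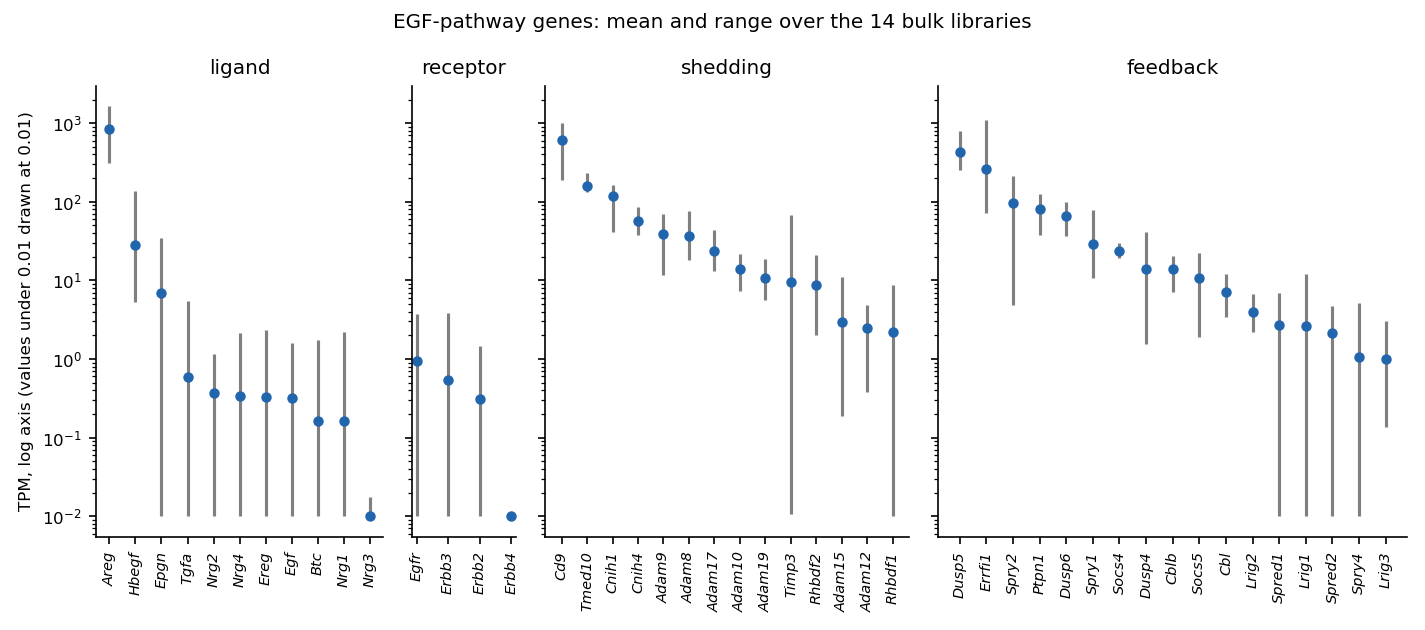
Level per length (TPM, log axis, values under 0.01 drawn at 0.01) of the listed ligands, receptors, shedding genes and feedback genes, with the mean (point) and range (line) over the 14 bulk libraries. Areg is the highest ligand at 838 TPM, the receptors average under 1 TPM, and Cd9 and Dusp5 lead their panels at 607 and 429 TPM.

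Of the 59 other genes of the EGF pathway listed, 55 were tested in the fate-map libraries, and 5 were called in fm_pos against fm_neg, all lower in fm_pos. The median log2 fold change of the 55 was −0.08, against 0.00 for all genes tested. Over all genes tested 2.74% were called, and 369 of those 478 were lower in fm_pos. Whether this list or those below exceeded that share was not tested. Egfr had 1 count in fm_pos and 547 in fm_neg, a ratio of 1060 by counts (95% counting interval 189 to 41800), and an adjusted p of 0.0285 by edgeR. Errfi1 fell by 2.16 ± 0.42 (log2, SE), from 1267 ± 263 CPM in fm_neg to 283 ± 185 in fm_pos (SD, n = 2 each). Spry2 fell by 2.91 ± 0.56 (10.2 ± 8.79 against 76.4 ± 3.38 CPM) and Spry1 by 1.95 ± 0.36 (21.6 ± 4.18 against 83.4 ± 2.74 CPM). Cd9 fell by 1.59 ± 0.35 (248.6 ± 144 against 750 ± 66.3 CPM). Adjusted p-values of Errfi1, Spry2, Spry1 and Cd9 by edgeR ranged from 0.0232 to 0.0467. Fibroblasts and keratinocytes are known to express Egfr and its feedback genes too, and their part in these values was not tested. Immediate early genes, which growth factor and antigen receptor signals switch on, had 5 of 18 called lower in fm_pos (Nr4a2, Zfp36, Ier3, Egr1 and Fosl1), with a median log2 fold change of −0.77. Il1rl1, the receptor for IL-33, an inducer of Areg in ILC2s, was the 1 of 20 listed Areg-linked receptors and factors called, lower in fm_pos by 3.96 ± 0.68.

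The other comparisons called 0 or 1 of these pathway genes. In Gata3flox mice, 0 of 55 EGF pathway genes were called between the reporter groups, with Il1rl1 again lower in reporter-positive cells (by 4.23 ± 0.57, SE, adjusted p 0.0179 by edgeR). Of the 18 immediate early genes, Nfkbia was called there, also lower. In fm_pos_Gata3flox against fm_pos, 0 of 55 were called, while Il17rb, the receptor for IL-25, fell by 4.83 ± 0.53 and Il7r, the IL-7 receptor, by 0.84 ± 0.18. There, 2 of the 18 immediate early genes were called, Atf3 and Jund, both lower, and the list's median log2 fold change was −0.08 against 0.18 for all genes. In fm_neg_Gata3flox against fm_neg, Errfi1 alone of the 55 was called (lower by 2.45 ± 0.37), with 5 of 18 immediate early genes called lower (Zfp36, Jund, Ier3, Egr1 and Fosl1) and a list median of −0.99 against 0.07 for all genes. The interaction called none of the 55, and Ier3 and Egr1 of the 18 immediate early genes were called with positive values of 2.26 ± 0.38 and 3.36 ± 0.61. In the tamoxifen libraries 0 of 47 tested pathway genes were called. Among all genes tested, the reporter comparison in Gata3flox mice called 0.361%, and the Gata3flox label 1.52% in positive and 1.33% in negative cells. The interaction called 1.01% and the tamoxifen comparison 0%. Whether the lists exceeded these shares was not tested. The counts here are of genes called in separate tests and do not test a difference between comparisons.

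Genes with the most similar pattern across the 10 fate-map libraries differed by member. Likeness was the root mean square difference of gene-centred log2 CPM, over 7717 named autosomal genes with a mean of at least 10 CPM. For Areg the 5 nearest genes were Mphosph10, Iqcb1, Arid5b, Lrrc58 and Dcakd, at 0.180 to 0.238, where the median gene was at 0.706. For Hbegf they were Aacs, Ier3, Cpq, Rab20 and Tsc22d1, at 0.392 to 0.494, with a median of 1.15 over all. For Tgfa they were Pmp22, Arg1, Cytl1, Ifitm3 and Apoe, at 1.25 to 1.33, with a median of 2.52. The libraries share their reporter and Gata3 groups in this measure, and nothing about shared control follows from it.

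In single cells Areg was again the main member. It had 4258 UMIs in the skin library, 416 CPM (95% counting interval 403 to 429), with at least 1 UMI in 38.4% of 4103 cells. It had 571 UMIs and 488 CPM (448 to 529) on day 0, in 29.7% of 553 cells, and 872 UMIs and 1011 CPM (945 to 1080) on day 10, in 41.5% of 443 cells. Areg was uneven among cells, since the 10 cells with the most UMIs held 5.45% of Areg in the skin library, 25.2% on day 0 and 29.1% on day 10. Single cells reached 51 Areg UMIs in the skin and day 10 libraries and 21 on day 0.

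The other members were rare in single cells. Hbegf had 102 UMIs in 81 skin cells (1.97% of cells, 9.96 CPM, 8.12 to 12.1), 3 UMIs in 3 cells on day 0 and 3 in 3 cells on day 10. Ereg had 21 UMIs in 16 skin cells (0.390%) and 0 in 553 and 443 dorsal cells, which allows shares of cells with a UMI of up to 0.542% and 0.677% when 0 is read as at most 3 cells (exact 95% upper bounds 0.665% and 0.829%). Tgfa had 2 UMIs in the skin library, 1 on day 0 and 0 on day 10. Areg was seen in 25 of the 81 cells with Hbegf (30.9%) and in 10 of the 16 with Ereg (62.5%), beside 38.4% of all skin cells. No cell had both Hbegf and Ereg. Egfr had 3 UMIs in the skin library and 0 in both dorsal libraries.

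Areg was higher on day 10 than on day 0 after depilation in these libraries. The ratio of day 10 to day 0 CPM was 2.07 (95% counting interval 1.86 to 2.31), and with 1 library per day there is no replicate check and no test. With each cell thinned to 1000 UMIs, which left out 34 cells on day 0 and 31 on day 10, the ratio was 2.24 (1.91 to 2.63). The share of cells with Areg was then 20.8% on day 0 and 34.0% on day 10. Without the 10 highest Areg cells of each day, a setting added after seeing the data, the ratio was 1.98 (1.74 to 2.24).

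Clusters made without the 4 members showed the day difference in each dorsal cluster. Dorsal cluster 2, led by Penk, Il1rl1, Il5 and Klrg1 and called ILC2-like from its markers, had 985 CPM of Areg on day 0 (878 to 1100, 135 cells) and 1465 on day 10 (1347 to 1592, 191 cells). The ratio there was 1.49 (1.29 to 1.71). Dorsal cluster 0, led by 5830411N06Rik, tdtomato and Cx3cr1 and left unnamed, had 286 CPM on day 0 (350 cells) and 434 on day 10 (200 cells), a ratio of 1.52 (1.23 to 1.86). Dorsal cluster 1, led by the heat shock genes Hspa1a and Hspa1b with Nfkbid and Egr1 and left unnamed, had 428 CPM in 68 cells and 1598 in 52 cells, a ratio of 3.74 (2.66 to 5.33). In that cluster, 46 UMIs were counted on day 0 and 140 on day 10, of which 48 came from 1 cell. Median UMIs per cell in these 3 clusters were 2014, 1924 and 1433.

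In the skin library Areg was spread over all 5 clusters. It was highest in cluster 2, led by Nfkbid and Tnfsf9 (587 CPM, 561 to 614, in 42.7% of 1554 cells), and in cluster 1, led by heat shock genes (523 CPM, 465 to 587, in 40.7% of 270 cells). The ILC2-like cluster 3, led by Il5 and Il1rl1, had 424 CPM (402 to 446) in 43.9% of 1117 cells. Cluster 4, led by Hopx and Tnfsf8 with Il17f, had 219 CPM (202 to 236) in 27.1% of 1106 cells. Cluster 0, led by the myeloid genes Lyz2 and Csf1r with the immunoglobulin gene Igkc, had 138 CPM (88.1 to 205) in 19.6% of 56 cells, at a median of 2732 UMIs. Cluster 0 held 24 Areg UMIs, up to 9 of them in 1 cell, and whether its cells make Areg themselves was not tested. It is therefore not a measured level of free RNA, and the part of free RNA in any cluster is not known. Clusters 1, 2 and 3 had shares above the interval of cluster 0 (10.2% to 32.4%), at medians of 1966, 1952 and 2892 UMIs. The share in cluster 4 (median 2600 UMIs) lay within it. Hbegf was highest in cluster 1 (28.6 CPM, 16.3 to 46.4, 16 UMIs in 9 cells) and was at 5.99 to 17.2 CPM in the others, where in cluster 0 it rested on 3 UMIs.

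**Figure D5:**
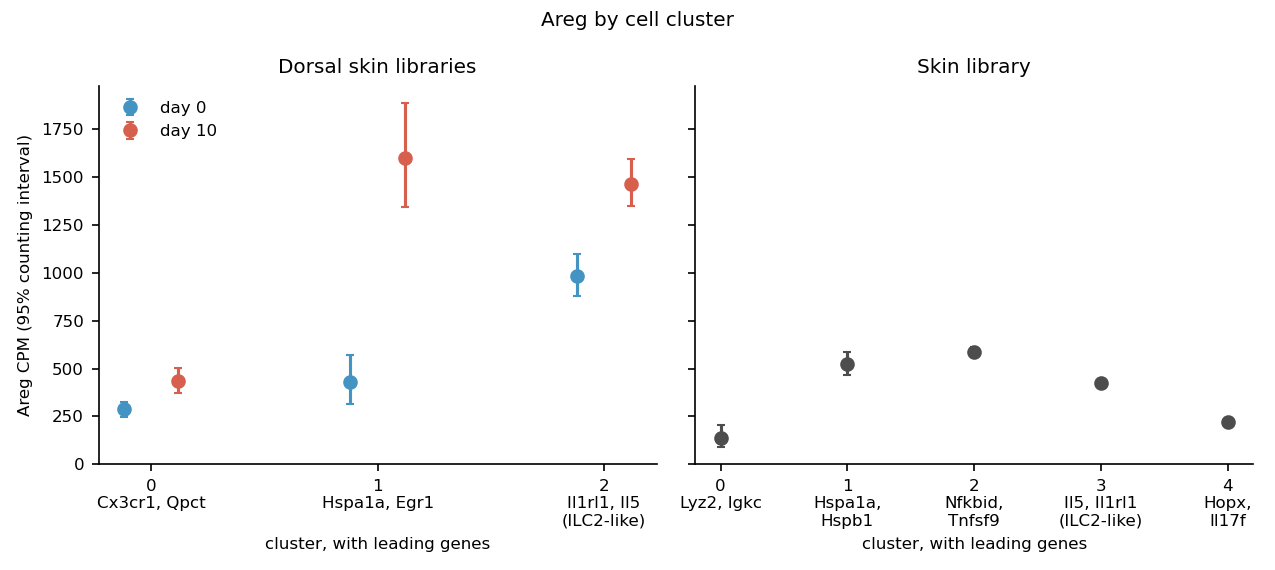
Areg CPM with 95% counting intervals (y axis, from 0) by cluster, with each cluster's leading genes on the x axis, in the dorsal libraries on day 0 and day 10 (left) and in the skin library (right). Day 10 lies above day 0 in each dorsal cluster, with 1465 against 985 CPM in the ILC2-like cluster, and cluster 0 of the skin library is lowest at 138 CPM.

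Areg also differed with other transcripts of the same cell. On day 0, cells with a tdtomato UMI, the reporter transcript listed in the dorsal libraries, had 213 CPM of Areg (161 to 276, 113 cells) and cells without had 569 (520.6 to 620, 440 cells), a ratio of 0.375 (0.280 to 0.493). On day 10 the values were 307 CPM (185 to 479, 28 cells) and 1065 (995 to 1139), a ratio of 0.288 (0.173 to 0.453). The day 10 cells with tdtomato held 19 Areg UMIs, in 6 cells. Cells with a tdtomato UMI had medians of 2321 UMIs against 1896 without on day 0, and 2020 against 1786 on day 10. The tdtomato transcript was kept out of the clustering. It is still a leading gene of dorsal cluster 0, so this split and that cluster are not independent. The parts of depth and of cluster in the difference were not tested. Cells with an Il1rl1 UMI had more Areg than cells without in each library, by ratios of 1.70 (1.58 to 1.83) in the skin, 2.30 (1.86 to 2.84) on day 0 and 3.07 (2.69 to 3.52) on day 10. Skin cells with a UMI of the T cell gene Cd3e had less, at 260 CPM (220 to 306, 199 cells) against 425 (412 to 438) without. Of the 147 Areg UMIs in the cells with Cd3e, 51 came from 1 cell. The labels do not say which reporter the tdtomato transcript belongs to, and these splits compare cells within 1 library, with counting error only.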

How the data were processed

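The deposited bulk tables hold raw read counts per gene, 1 file per library. HISAT2 2.1.0, featureCounts (Subread) and mm10 are named in the submitters' processing notes. The gene length used for TPM is the summed exon length in the deposited tables. The deposited single-cell tables hold UMI counts per gene and cell, and their counting software is not given in the sources used here. Genes were tested with edgeR 4.0.16 (filterByExpr, TMM, quasi-likelihood test, Benjamini-Hochberg threshold 0.05), in 1 model for the 10 fate-map libraries and another for the 4 tamoxifen libraries. DESeq2 1.42.0 and other settings were alternatives. The scripts were tested on simulated data. Folds of genes at or near 0 counts used a floor of 3 counts over a group.

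The cell filter required at least 200 genes and at most 10% mitochondrial counts. The dorsal tables list no mitochondrial gene, so that filter acted on the skin library alone. Scrublet removed 3, 11 and 11 predicted doublets from the skin, day 0 and day 10 libraries, and at 0.07% of skin cells it did not work there. Cells were clustered with scanpy 1.11.5 (2000 variable genes, 30 components, 15 neighbours, Leiden resolution 0.5). The 11 listed EGF-family ligands, among them the 4 members, and tdtomato were left out of the clustering. Intervals are 95% exact Poisson, Clopper-Pearson or conditional binomial intervals. Members and gene lists were chosen with earlier results of these data known. Named pathway genes are those called, or the most abundant of their list. The gene behind the fate-map reporter is not reported here.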

Additional observations from a re-analysis of the deposited data

Results flagged for a closer look

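Hbegf differed in opposite directions with the Gata3flox label in the reporter groups, without a call in either. All 3 fm_pos_Gata3flox libraries (15.5 to 21.9 CPM) lay above both fm_pos libraries (11.1 and 11.5 CPM), and all 3 fm_neg_Gata3flox libraries (13.2 to 31.4 CPM) lay below both fm_neg libraries (44.6 and 128 CPM). This separation is what flagged the gene, and how many of all genes tested separated in this way was not counted. The interaction was 2.73 ± 0.69 (SE) on the log2 scale, and its adjusted p of 0.111 by edgeR's quasi-likelihood test did not pass the threshold. Nor did the single comparisons, at 0.78 ± 0.49 in positive cells (adjusted p 0.392) and −1.95 ± 0.47 in negative cells (0.0794). Summed keratinocyte markers were 2572 to 4728 CPM in fm_neg and 492 to 625 in fm_neg_Gata3flox, and summed fibroblast markers 5461 to 7844 and 344 to 872, and their part in the result was not tested. The run tag of the files and the Gata3flox label cannot be told apart.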

How the results depend on the processing

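Of 100 values of single members with an adjusted p under settings other than leaving out a library, 86 kept their direction and their side of the threshold, 10 newly passed it, 3 no longer passed it and 1 turned direction. The cause of these changes was not tested. In the order reporter in intact mice, reporter in Gata3flox mice, Gata3flox in positive cells, Gata3flox in negative cells, interaction and tamoxifen, DESeq2 called 2208, 419, 1919, 1584, 1158 and 200 genes, and no filter on low counts gave 1324, 321, 974, 893, 773 and 6. With the L tag of the file names as a covariate, which partly coincides with the reporter, the first 5 were 250, 10, 133, 77 and 73. The libraries of the 2 groups alone gave 29, 233, 0 and 367 in the first 4.

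For fm_pos against fm_neg, Areg passed with DESeq2 (log2 fold change −1.09, adjusted p 0.00428) and with no filter in edgeR (−0.97, 0.011), and Tgfa with the same settings (−10.59, 0.000647, and −10.61, 0.0272). Hbegf no longer passed with edgeR on the 2 groups alone (−2.97, 0.246) or with fm_neg_Gata3flox as the negative side (−0.99, 0.269), a setting chosen after the data were seen. For fm_neg_Gata3flox against fm_neg, Hbegf passed with DESeq2 (−2.03, 0.00249), with no filter in edgeR (−1.91, 0.00562) and with the L tag (−2.04, 0.0417). Its interaction passed with the same settings (2.77, 0.00402, then 2.69, 0.00897, then 2.82, 0.0418). For fm_pos_Gata3flox against fm_neg_Gata3flox, Hbegf turned to 0.69 with the L tag.

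Replicate numbers did not pair the samples (correlations of deviations from −0.026 to 0.097). With the replicate block, 126, 31, 131, 83 and 26 genes were called in the first 5 comparisons, and Hbegf had −2.74 (adjusted p 0.0964 by edgeR) in fm_pos against fm_neg.

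Leaving out 1 library at a time gave 514 to 877, 2 to 27, 66 to 489, 5 to 190, 54 to 504 and 0 to 0 called genes in the 6 comparisons. For fm_pos against fm_neg, the log2 fold change of Areg ran from −1.59 to −0.61 and that of Hbegf from −3.50 to −1.98. For the Gata3flox label in positive cells Areg ran from −0.12 to 0.86. Hbegf ran from −0.47 to 0.12 between the Gata3flox reporter groups, from −2.51 to −0.99 for the label in negative cells and from 1.77 to 3.29 in the interaction. Tgfa ran from −3.40 to −0.17 for the label in negative cells, the latter without fm_neg replicate 2. A group left with 1 library was assumed to vary like the others. The day 10 to day 0 ratio of Areg stayed between 1.98 and 2.24 in 5 alternatives. Low counts limit Ereg, with at most 3 counts in 10 of 14 libraries, and Tgfa, with at most 3 in 7.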
